A study of Homo sapiens with 70 samples.

Results

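Mitosis and the transition from G2 into it are run by a set of genes whose mRNAs peak together late in the cell cycle. The genes described here are 56 such genes, taken as a list of symbols and found among the 44503 genes of each of 3 count tables, by a rule that reads no measured value, although the list was drawn up with earlier results of these data known. In background terms, cyclin B bound to CDK1 drives entry into mitosis, the spindle checkpoint holds chromosomes back until every kinetochore is attached, the anaphase-promoting complex with CDC20 then triggers separation of sister chromatids, and kinesins, the chromosomal passenger complex and anillin complete division. In resting cells these genes are repressed by the DREAM complex, which contains the pocket proteins p107 and p130 and the MuvB core, and in cycling cells they are activated by MuvB with B-MYB (*MYBL2*) and *FOXM1*. *CDKN1A* (p21) blocks the cyclin-dependent kinases that would otherwise break up DREAM. In senescent fibroblasts, low mitotic gene expression accompanies a lasting arrest.

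The measurements were RNA-seq read counts from 2 cell lines, IMR90 normal human fetal lung fibroblasts and H1299 non-small cell lung cancer cells. Every IMR90 group carried pLNCX2 ER:HRAS G12V, an oncogenic RAS fused to an oestrogen receptor domain, including the controls, so that adding 4-hydroxytamoxifen (4OHT) at 100 nM for 6 days switched on oncogene-induced senescence (OIS). In the first experiment, Grow (untreated) and OIS cells carried the empty vector pMSCV miR v, while Grow-shA1 and OIS-shA1 carried a hairpin against *HMGA1*, with 8 libraries per group. In the second, untreated Grow-v-v and 4OHT-treated OIS-v-v cells carried both empty vectors (pSuper v and pMSCV miR v). OIS-shCEBPB cells had a hairpin against *CEBPB* (which encodes C/EBPβ) in pSuper, OIS-shp53 cells the other hairpin in pMSCV miR, and OIS-shCEBPB-shp53 cells both, again under 4OHT, with 5 libraries per group. In the third, H1299 cells without the RAS transgene carried the empty vector (H1299-v, 7 libraries) or the *HMGA1* hairpin (H1299-shA1, 6 libraries). The vectors were delivered by retrovirus. The label text speaks of 6 biological replicates per condition, which is not the number of libraries in most groups, and does not say how the cultures were separated, so each n here counts libraries and the p-values measure the spread between these samples, which may be partly technical.

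Depth was 13904974 to 24890797 counts per library with 1 exception, OIS replicate 4, which held 1903607, and the main counts of calls that rest on it are given with and without it. It held the highest OIS value of *TOP2A*, *MKI67*, *CDK1*, *PLK1* and the summed level, and the lowest of *AURKB*. In the second experiment replicates 1 to 3 stood apart from replicates 4 and 5 in all 5 groups on the first principal component of the deviations from group means, which held 36.7% of the variance. The labels name no batch for that split, and the comparisons of the knock-downs with OIS-v-v are therefore given for both sets as well. *HMGA1* was 436 to 557 CPM (counts scaled to library size) in Grow and 27.02 to 39.14 CPM in Grow-shA1, 631 to 825 and 51.4 to 68.5 CPM in OIS and OIS-shA1, and 1716 to 1976 and 357 to 449 CPM in H1299-v and H1299-shA1. *CEBPB* was 259 to 329 CPM in OIS-v-v against 26.6 to 42.8 CPM in OIS-shCEBPB. The summed level of 10 fibroblast markers was 39123 to 48908 CPM in Grow and 6664 to 7973 CPM in OIS, with 9 of the 10 lower in OIS, and 40207 to 53038 CPM in Grow-v-v and 14819 to 22166 CPM in OIS-v-v, with 8 of the 10 lower. Their part in the mitotic results was not tested. The summed level of 3 immune markers was 15.75 to 22.68 CPM in Grow and 43.38 to 58.08 CPM in OIS, and 28.26 to 46.25 CPM in Grow-v-v and 46.66 to 89.67 CPM in OIS-v-v, and that of 5 epithelial markers was 71.5 to 94.4 CPM in Grow and 42.9 to 58.2 CPM in OIS. Their part was not tested either. Among the defining markers in these lists, EPCAM was at most 1.02 CPM, CDH1 at most 0.281 CPM and PTPRC at most 0.743 CPM over the 57 IMR90 libraries. CD3E was at most 0.0599 CPM there. The immune sum was thus nearly all the remaining marker, CD68, and the epithelial sum nearly all keratin genes.

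RefSeq (GRCh38.p14) gave the sequence from 250 bases before to 50 bases after the start site for 47 of the 56 genes. No entry was found for *FOXM1*, *AURKA*, *BUB3*, *TTK*, *UBE2C*, *CENPM*, *BIRC5*, *TPX2* and *CDCA2*. A few are printed to show short motifs that are common in the set: TTTGAA, the CHR element through which MuvB is known to bind mitotic promoters, and CCAAT, the box bound by NF-Y. *CDK1*, *PLK1* and *CDC20* show both, and *CDC25B*, a phosphatase that activates CDK1, is shown as a gene whose listed promoter has neither but holds GCGGGAA, a form of the site of E2F factors. Capitals mark every match to these 3 motifs, on the printed strand or as the reverse complement. All are on the plus strand, at chr10:60778081-60778380 for *CDK1*, chr16:23678639-23678938 for *PLK1*, chr1:43358731-43359030 for *CDC20* and chr20:3786701-3787000 for *CDC25B*. *CDK1* has 2 listed starts and *CDC25B* has 4, of which the first is printed.
CDK1: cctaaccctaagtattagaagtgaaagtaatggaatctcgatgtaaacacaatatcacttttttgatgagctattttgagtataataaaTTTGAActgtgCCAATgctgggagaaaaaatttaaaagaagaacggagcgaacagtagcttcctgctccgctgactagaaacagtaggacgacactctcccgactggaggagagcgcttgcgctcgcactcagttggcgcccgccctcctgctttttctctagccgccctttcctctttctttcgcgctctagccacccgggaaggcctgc
PLK1: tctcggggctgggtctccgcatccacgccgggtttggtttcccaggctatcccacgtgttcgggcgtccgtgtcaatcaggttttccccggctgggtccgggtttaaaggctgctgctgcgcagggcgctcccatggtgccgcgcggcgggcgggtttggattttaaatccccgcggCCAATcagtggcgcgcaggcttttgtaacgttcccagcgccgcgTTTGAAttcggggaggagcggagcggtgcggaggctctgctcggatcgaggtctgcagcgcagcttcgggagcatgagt
CDC20: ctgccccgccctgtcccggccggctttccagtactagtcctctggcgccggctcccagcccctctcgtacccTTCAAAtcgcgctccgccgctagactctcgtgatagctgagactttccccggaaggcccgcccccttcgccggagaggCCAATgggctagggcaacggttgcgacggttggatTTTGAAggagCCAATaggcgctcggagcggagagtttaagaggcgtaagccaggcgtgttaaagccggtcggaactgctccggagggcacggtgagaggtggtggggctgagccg
CDC25B: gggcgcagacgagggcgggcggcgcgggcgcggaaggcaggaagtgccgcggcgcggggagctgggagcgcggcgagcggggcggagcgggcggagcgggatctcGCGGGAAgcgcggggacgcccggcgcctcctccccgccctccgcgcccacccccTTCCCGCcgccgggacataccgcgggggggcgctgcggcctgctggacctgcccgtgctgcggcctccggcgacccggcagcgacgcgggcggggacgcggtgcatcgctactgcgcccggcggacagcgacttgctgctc

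In *PLK1* the TTTGAA began 29 bases and the CCAAT 73 bases upstream of the start. *CDC20* had TTTGAA at 65 bases upstream with CCAAT boxes at 100 and 55 bases upstream, and *CDK1* had TTTGAA and CCAAT side by side, 161 and 150 bases upstream. Searched on both strands, TTTGAA was in 33 of the 47 promoters (70.2%) and in 15.4% of the 27305 genes with a promoter of that length, taking the first listed start of each gene. CCAAT was in 74.5% against 35.7%, and the 2 motifs were together in 59.6% against 6.08%. GCGGGAA was in 10.6% of them, against 54.5% of 33 S phase promoters and 6.56% of all genes, and TTTAAA, a second form of the CHR element, in 31.9% against 12.3%. These matches are descriptions of letters and no sites. TTTGAA was not in 14 of the listed promoters, among them those of *MYBL2*, *CCNB1*, *BUB1*, *AURKB*, *KIF20A* and *NEK2*. Of these 14, the promoters of *CCNB1*, *PTTG1*, *CENPE*, *KIF2C* and *KIF20A* held TTTAAA. A split by TTTGAA is therefore not a split by presence of either form of the CHR element. The 33 genes with TTTGAA and the 14 without it had median log2 fold changes of -3.46 and -3.41 in OIS against Grow, -2.39 and -2.37 in OIS-v-v against Grow-v-v, 0.99 and 1.11 with both hairpins against OIS-v-v, and -0.17 and -0.24 in OIS-shA1 against OIS.

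How far did OIS lower these genes? All 56 were measured and tested, and all 56 fell in OIS against Grow at an adjusted p under 0.05 (edgeR quasi-likelihood test, n = 8 per group), where 35.9% of the 13304 genes tested were lower. Their median log2 fold change was -3.41 against 0.03 for all genes tested, and the groups did not overlap for any of the 56. The share of all genes without overlap is not given, here or in the comparisons below. The summed level was 5794 to 7473 CPM in Grow (median 6649) and 675 to 947 CPM in OIS (median 811). In bulk RNA, fewer cycling cells and less mitotic mRNA per cell cannot be told apart. Counts were made without regard to strand, 20 of the 56 share exon sequence with another gene (18 of them with a gene on the opposite strand, such as *FOXM1* with *ITFG2*), and *KIF4A* and *PTTG1* have near-identical copies elsewhere, so their counts are less certain.

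**Figure D1:**
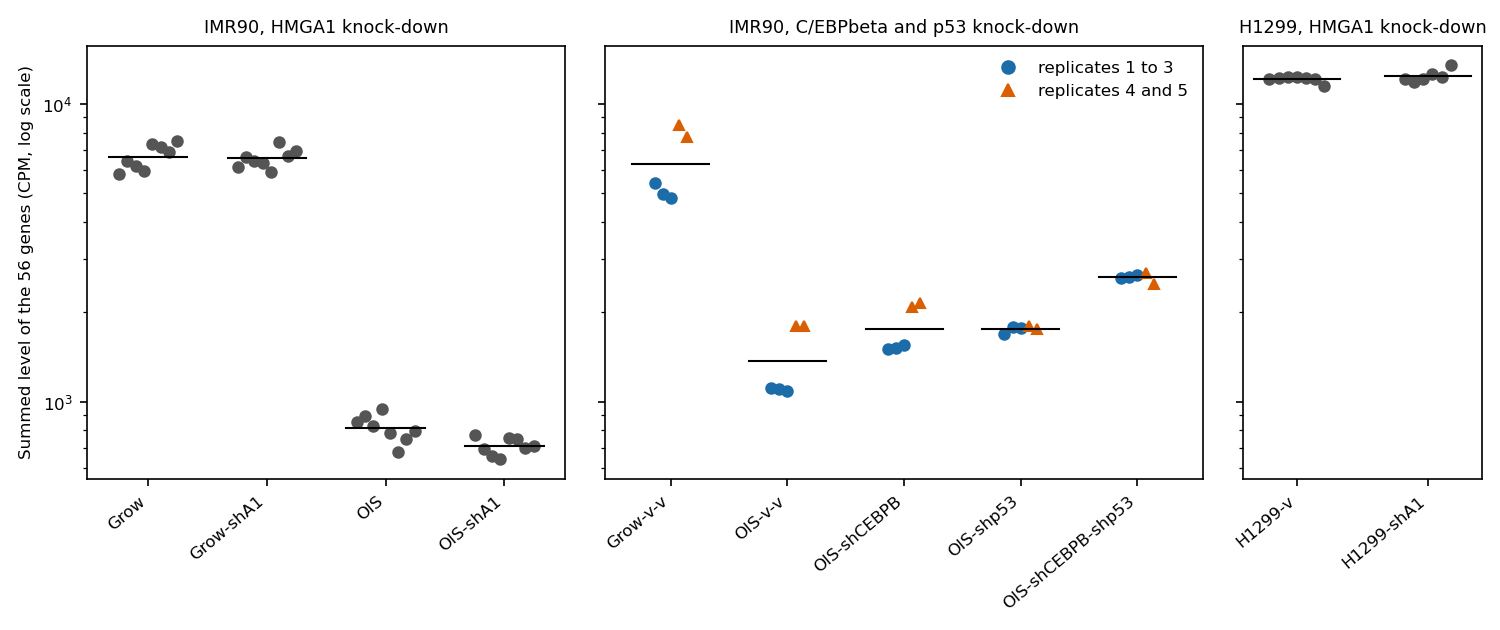
Summed CPM of the 56 genes in each library (log axis) for the 3 experiments, with 1 point per library and a line at the group mean. OIS libraries lie at 675 to 947 CPM and Grow libraries at 5794 to 7473 CPM, and in the second experiment the 5 libraries with both hairpins lie at 2478 to 2709 CPM, between OIS-v-v and Grow-v-v.

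Both transcription factors of the set fell. *FOXM1* was 124 to 152, median 134 CPM in Grow and 12.1 to 16.6, median 14.6 CPM in OIS, a log2 fold change of -3.19 ± 0.06 (SE). *MYBL2* was 55.5 to 64.6, median 59.2 CPM in Grow and 2.13 to 4.30, median 3.55 CPM in OIS, a log2 fold change of -4.07 ± 0.08. The Grow and OIS libraries lay far apart for both factors, and *MYBL2* was among the 5 largest falls of the set.

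Cyclins, CDK1 and the mitotic kinases and phosphatases fell as a group of 9, with a median log2 fold change of -3.61. *CCNB1*, the cyclin partner of CDK1, was 148 to 211, median 174 CPM in Grow and 16.5 to 23.9, median 23.2 CPM in OIS (-2.98 ± 0.07 log2). *CDK1* itself was 104 to 121, median 107 CPM in Grow and 7.55 to 13.4, median 10.8 CPM in OIS (-3.38 ± 0.08 log2). *PLK1*, the kinase of centrosome maturation and mitotic entry, was 103 to 140, median 117 CPM in Grow and 8.10 to 11.4, median 9.56 CPM in OIS (-3.61 ± 0.07 log2). Not 1 OIS library reached the lowest Grow library for any of the 3. *NEK2*, a centrosome kinase, fell further, by 4.28 on the log2 scale, and *AURKA* and *CDC25B* fell least in this group, at -2.16 and -2.05.

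The spindle checkpoint genes were split. *BUB1*, a checkpoint kinase at kinetochores, was 98.8 to 131, median 114 CPM in Grow and 8.66 to 13.5, median 11.5 CPM in OIS (-3.35 ± 0.08 log2). *BUB3*, its WD-repeat partner, was 154 to 170, median 162 CPM in Grow and 95.1 to 110, median 102 CPM in OIS (-0.62 ± 0.04 log2, adjusted p = 2.14e-14). Its fall was the smallest of the 56, yet the groups did not overlap. *MAD2L1*, which blocks CDC20 until chromosomes are attached, fell by 1.71 on the log2 scale. Among genes of the anaphase-promoting complex and sister chromatid separation, *CDC20* was 101 to 136, median 112 CPM in Grow and 7.77 to 12.9, median 11.1 CPM in OIS (-3.33 ± 0.08 log2), while *ESPL1*, which encodes the protease separase, fell by 1.45.

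The largest falls were in *KIF20A*, *ASPM* and *CENPA*, followed by *NEK2* and *MYBL2*, which are given above. *KIF20A*, a kinesin of the central spindle, was 76.4 to 122, median 100 CPM in Grow and 2.26 to 4.99, median 4.13 CPM in OIS (-4.65 ± 0.12 log2). *ASPM*, a spindle pole protein, fell by 4.58 and *CENPA*, the centromeric histone H3 variant, by 4.32 on the log2 scale. *AURKB*, the kinase of the chromosomal passenger complex, was 35.2 to 44.2, median 39.2 CPM in Grow and 1.91 to 5.65, median 4.34 CPM in OIS (-3.08 ± 0.09 log2). Its partner *INCENP* fell less, by 1.86, and so did *ECT2*, the exchange factor that starts cytokinesis, by 1.71. *TOP2A*, which untangles chromosomes, was 489 to 620, median 556 CPM in Grow and 35.9 to 71.99, median 52.7 CPM in OIS (-3.41 ± 0.09 log2). *MKI67*, whose product coats mitotic chromosomes and is the common proliferation marker Ki-67, was 254 to 387, median 320 CPM in Grow and 14.4 to 24.3, median 18.8 CPM in OIS (-4.06 ± 0.10 log2). In OIS replicate 4, the shallow library, *CENPA* had 0 counts, which allows up to 3 counts in that library and covers counting error only, and without that library all 56 still passed.

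Compared per kilobase of exon, *ANLN* (97.6), *TOP2A* (96.0) and *TPX2* (73.7 CPM per kb) were the most abundant of the set in Grow and *ESPL1* the least (4.12). In OIS, *BUB3* led at 32.3 CPM per kb, ahead of *PTTG1* at 10.3 and *ECT2* at 9.17, and *CDC25C* was lowest at 0.369. *BUB3* and *ECT2* were also among the 5 genes that fell least.

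**Figure D2:**
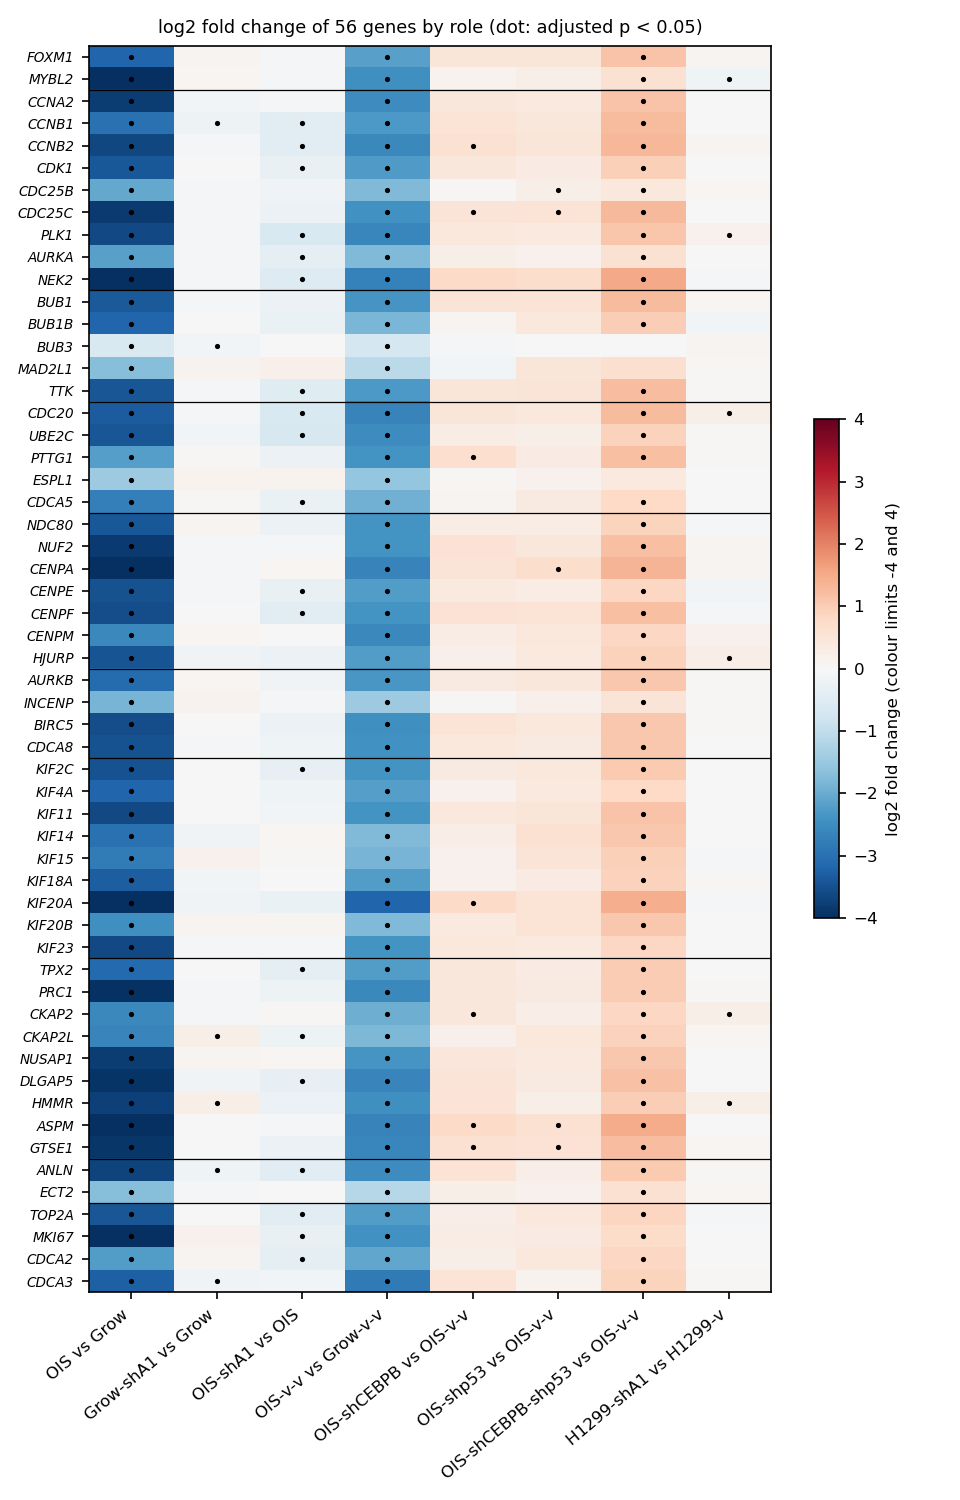
Log2 fold change of each of the 56 genes (rows, grouped by role) in 8 comparisons (columns), with dots where the adjusted p is under 0.05 and colours saturating at the limits of the scale. All 56 genes carry a dot in both columns of OIS against growing cells, 53 in the column of the double knock-down against OIS-v-v, and 7 and 5 in the columns of the single knock-downs.

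The second experiment gave the same direction. All 56 genes were lower in OIS-v-v than in Grow-v-v, where 23.2% of genes were lower, with a median log2 fold change of -2.37 against 0.01 for all genes (n = 5 per group), and the groups did not overlap for any of them. Falls ran from -3.17 ± 0.23 for *KIF20A*, -2.84 ± 0.34 for *CDCA3*, an adaptor of protein degradation, and -2.69 ± 0.28 for *NEK2* to -1.15 ± 0.12 for *ECT2*, -1.07 ± 0.27 for *MAD2L1* and -0.72 ± 0.17 for *BUB3*. Summed levels were 5414, 4975 and 4842 CPM in Grow-v-v replicates 1 to 3 but 8453 and 7759 in replicates 4 and 5, and 1106, 1099 and 1083 CPM against 1792 and 1786 CPM in OIS-v-v. Replicates 4 and 5 were thus higher in both groups. OIS-v-v stood at 21.6% of Grow-v-v within replicates 1 to 3 and at 22.1% within replicates 4 and 5.

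In a model with the set of replicates as a term and its interaction, added after the data were seen, 15 of the 56 genes differed between the sets, where 27.7% of genes did, a share near that of the 56. The fall was larger in replicates 4 and 5 for 7 of them, among them *MYBL2* (-2.08 in replicates 1 to 3 and -2.90 in replicates 4 and 5) and *BUB3* (-0.41 and -1.06). It was smaller for 8, among them *KIF20B* (-2.36 and -1.25) and *TOP2A* (-2.57 and -1.96).

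Which of these genes came back in the shCEBPB and shp53 groups of OIS? With both hairpins, 53 of 56 were higher than in OIS-v-v, where 17.1% of genes were higher, with a median log2 fold change of 1.01 against -0.01 for all genes (n = 5 per group). The rise was largest for *NEK2* (1.51 ± 0.21), *ASPM* (1.49 ± 0.15), *KIF20A* (1.44 ± 0.15), *CENPA* (1.35 ± 0.15) and *CCNB2* (1.34 ± 0.17). The 3 that did not pass were *BUB3* (0.03 ± 0.06, adjusted p = 0.762), *ESPL1* (0.40 ± 0.16, adjusted p = 0.0697) and *MAD2L1* (0.66 ± 0.24, adjusted p = 0.0545), which were also among the genes that OIS had lowered least. The model with the set and its interaction gave their log2 values for replicates 1 to 3 and for replicates 4 and 5. For *MAD2L1* they were 1.13 and 0.22 (adjusted p = 1.35e-12 and 0.0398). For *ESPL1* they were 0.59 and 0.22 (adjusted p = 1.79e-06 and 0.0803), and for *BUB3* 0.02 and 0.04 (adjusted p = 0.7775 and 0.7352). The smallest rises that passed were *CDC25B* (0.42 ± 0.06), *INCENP* (0.50 ± 0.12) and *AURKA* (0.60 ± 0.09). Groups did not overlap for 52 genes, again without the share of all genes beside it. With the replicate number as a block, 55 were higher, where 21.9% of genes were.

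In the fit without a term for the replicates, each hairpin alone gave few calls. In OIS-shCEBPB 7 genes were higher than in OIS-v-v, where 9.09% of genes were higher, and the median was 0.41 on the log2 scale against 0.00 for all genes. They were *KIF20A* (0.77 ± 0.18, adjusted p = 0.0103), *ASPM*, *PTTG1* (securin, the inhibitor of separase), *CCNB2* (cyclin B2), *GTSE1* (a microtubule protein), *CDC25C* (the phosphatase that activates CDK1) and *CKAP2*, from 0.47 to 0.77. *NEK2* had 0.77 ± 0.26, adjusted p = 0.0614. The lowest values, none of which passed, were *MAD2L1* (-0.12 ± 0.29), *BUB3* (-0.06 ± 0.06), *INCENP* (0.04 ± 0.13), *ESPL1* (0.05 ± 0.17) and *CDC25B* (0.06 ± 0.05). In OIS-shp53 5 were higher, where 2.47% of genes were, and the median was 0.40 against 0.00. They were *CENPA* (0.70 ± 0.16, adjusted p = 0.0311), *ASPM*, *GTSE1*, *CDC25C* and *CDC25B*, from 0.24 to 0.70. *NEK2* (0.69 ± 0.22, adjusted p = 0.104) and *KIF14*, a kinesin of cytokinesis (0.60 ± 0.22, adjusted p = 0.154), had high values without passing, and the lowest were *BUB3* (-0.01 ± 0.05), *CDCA3* (0.13 ± 0.16), *ECT2* (0.17 ± 0.09), *ESPL1* (0.17 ± 0.17) and *AURKA* (0.18 ± 0.10). None of the 56 was lower in either comparison in edgeR or DESeq2. All 3 knock-down comparisons share the OIS-v-v libraries.

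These counts changed with the handling of the replicates. With the replicate number as a block, 43 genes were higher in OIS-shCEBPB, where 16.9% of genes were, and 41 in OIS-shp53, where 12% were. Leaving out 1 library moved the count for OIS-shCEBPB to 21 without OIS-v-v replicate 4, to 15 without OIS-v-v replicate 5 and to 4 without OIS-v-v replicate 1, 2 or 3 or OIS-shCEBPB replicate 4 or 5. For OIS-shp53 it was 15 and 8 without OIS-v-v replicates 4 and 5, 1 and 2 without OIS-shp53 replicates 4 and 5, and 0 without replicate 1, 2 or 3 of either group.

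Analysed apart, which was decided after the data were seen, the sets gave different pictures. In replicates 1 to 3 alone, 49 genes were higher in OIS-shCEBPB (16.6% of genes were), 55 in OIS-shp53 (17.6%) and 55 with both hairpins (27.3%), with medians of 0.55, 0.77 and 1.45. In replicates 4 and 5 alone, 25 were higher and 1 lower in OIS-shCEBPB (13.2% of genes were higher), 0 in OIS-shp53 (3.05%) and 52 with both (15.1%), with medians of 0.22, 0.01 and 0.54. Of the 56, 7 had an unadjusted p under 0.05 in OIS-shp53 replicates 4 and 5 alone. Their directions and the share of all genes are not given, so they are not read as a rise. The difference between the sets was itself tested, and the rise was smaller in replicates 4 and 5 for 14 genes in OIS-shCEBPB (2.5% of genes), 47 in OIS-shp53 (3.76%) and 53 with both hairpins (7.32%), and larger for 0 of the 56 in each.

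**Figure D3:**
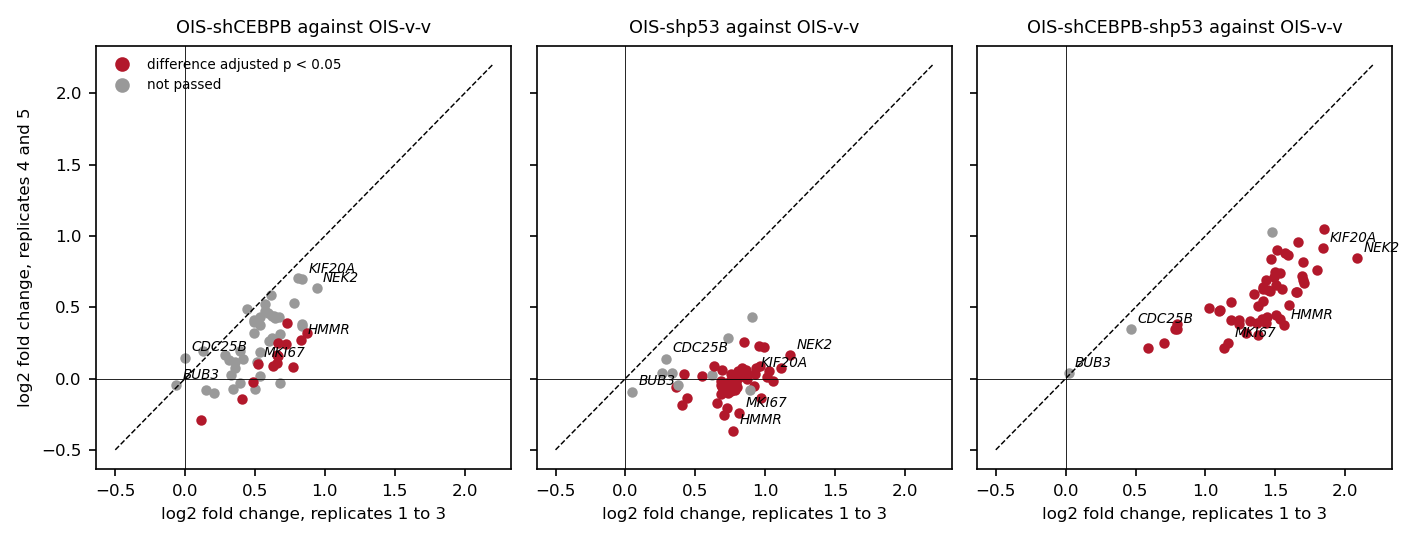
Log2 fold change against OIS-v-v in replicates 1 to 3 (x axis) and in replicates 4 and 5 (y axis), 1 point per gene, in 3 panels for OIS-shCEBPB, OIS-shp53 and both hairpins, with red points where the difference between sets passed the test and a dashed line at equality. In the OIS-shp53 panel the points lie near 0 on the y axis, with medians of 0.77 and 0.01 in replicates 1 to 3 and in replicates 4 and 5 fitted alone.

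The values behind this are plain in single genes. *CDK1* was 75.96, 65.5 and 66.6 in replicates 1 to 3 and 118 and 113 in replicates 4 and 5 of Grow-v-v (CPM), and 13.7, 11.9 and 13.4 in replicates 1 to 3 and 25.8 and 25.5 in replicates 4 and 5 of OIS-v-v. With shCEBPB it was 19.5, 18.95, 21.5, 30.2 and 33.2 CPM in replicates 1 to 5, with shp53 21.5, 20.2, 23.3, 23.9 and 24.1 CPM, and with both hairpins 31.5, 35.2, 35.9, 36.2 and 37.3 CPM. The 5 libraries with both hairpins lay above every other OIS library except shCEBPB replicate 5, and below every Grow-v-v library. OIS-v-v was higher in replicates 4 and 5 than in 1 to 3, while the OIS-shp53 libraries lay close together, and the shp53 log2 difference was 0.73 in replicates 1 to 3 and -0.10 in replicates 4 and 5 (difference -0.84 ± 0.12, adjusted p = 4.75e-05).

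*FOXM1* ran from 33.02, 31.95 and 30.95 in replicates 1 to 3 and 57.2 and 61.6 in replicates 4 and 5 of OIS-v-v to 93.9, 94.3 and 91.8 in replicates 1 to 3 and 107 and 92.6 in replicates 4 and 5 with both hairpins (CPM). It was 50.3, 52.5, 55.1, 69.9 and 72.5 CPM with shCEBPB, 57.1, 57.6, 60.1, 63.8 and 60.3 CPM with shp53 and 167, 165, 150, 237 and 257 CPM in Grow-v-v. Double knock-down libraries were above all OIS-v-v libraries and below all Grow-v-v libraries. *MYBL2* was 66.2, 66.6, 68.05, 116 and 120 CPM in Grow-v-v, 17.3, 14.9, 14.7, 14.7 and 16.8 CPM in OIS-v-v and 26.05, 27.7, 27.8, 20.99 and 19.1 CPM with both hairpins. It was 16.5, 16.6, 18, 18.7 and 17.6 CPM with shCEBPB and 22.2, 18.7, 22.7, 15.7 and 12.7 CPM with shp53. *MYBL2* rose less than *FOXM1*, by 0.62 ± 0.11 against 1.15 ± 0.18 log2, and OIS-shp53 replicate 4 lay within the OIS-v-v range and replicate 5 below it.

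*CCNB1* was 132, 122, 129, 234 and 251 CPM in Grow-v-v, 29.6, 25.5, 27.8, 42.3 and 48.9 CPM in OIS-v-v and 76.9, 83.8, 91.04, 85.8 and 81.1 CPM with both hairpins. It was 43.5, 40.5, 47.8, 63.6 and 60.8 CPM with shCEBPB and 45.4, 51.7, 48.2, 47.5 and 47.5 CPM with shp53. The double knock-down lay above all OIS-v-v libraries (1.25 ± 0.16, adjusted p = 7.69e-05). *PLK1* was 134, 122, 127, 247 and 270 CPM in Grow-v-v, 22.1, 21.4, 23.1, 37.4 and 40.9 CPM in OIS-v-v and 61.2, 68.02, 67.8, 63.3 and 58.03 CPM with both hairpins. It was 33.3, 32.1, 35.4, 48.5 and 46.6 CPM with shCEBPB and 35.5, 40.6, 39.5, 37.3 and 36.99 CPM with shp53, again without overlap between the double knock-down and OIS-v-v (1.12 ± 0.17, adjusted p = 0.000353). *AURKB* was 49.5, 49.1, 54.5, 81.9 and 107 CPM in Grow-v-v, 9.60, 8.98, 10.1, 18.6 and 19.7 CPM in OIS-v-v, 15.5, 13.8, 15.1, 19.2 and 22.2 CPM with shCEBPB, 16.6, 19.1, 16.96, 19.6 and 20.2 CPM with shp53 and 27.4, 29.6, 30.9, 29.5 and 25.4 CPM with both. Single knock-down libraries of *AURKB* overlapped OIS-v-v, and those with both hairpins did not (1.08 ± 0.21, adjusted p = 0.00181).

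At the checkpoint, *BUB1* and *BUB3* parted. *BUB1* was 80.8, 74.5, 68.8, 121 and 107 CPM in Grow-v-v, 13.3, 12.8, 11.7, 25.1 and 24.2 CPM in OIS-v-v, 18.1, 20.9, 19.6, 32.4 and 34.7 CPM with shCEBPB, 24.4, 24.9, 24.4, 26.8 and 25.8 CPM with shp53 and 40.9, 40.8, 41.9, 45.4 and 41.8 CPM with both. *BUB3* was 125, 113, 124, 188 and 212 CPM in Grow-v-v, 89.02, 83.6, 96.2, 95.2 and 95.8 CPM in OIS-v-v, 84.8, 86.6, 85.6, 92.9 and 94.2 CPM with shCEBPB, 94.4, 94.1, 89.7, 92.5 and 87.2 CPM with shp53 and 88.5, 91.7, 95.1, 103 and 94.1 CPM with both. *BUB1* with both hairpins was clear of every OIS-v-v library, whereas all 4 OIS groups overlapped for *BUB3*. *CDC20* was 127, 121, 132, 277 and 331 CPM in Grow-v-v, 25.9, 23.1, 24.9, 36.4 and 42.4 CPM in OIS-v-v, 32.5, 33.8, 40.2, 56.03 and 51.4 CPM with shCEBPB, 40.2, 43.2, 45.2, 40.9 and 36.2 CPM with shp53 and 71.05, 75.9, 74.7, 77.3 and 68.04 CPM with both. Its double knock-down libraries were above every OIS-v-v library, and its Grow-v-v libraries were higher in replicates 4 and 5 than in replicates 1 to 3.

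Among motors and chromosome proteins, *KIF20A* was 84.6, 81.7, 83.7, 146 and 137 CPM in Grow-v-v, 9.48, 10.04, 9.37, 15.4 and 14.5 CPM in OIS-v-v, 15.7, 17.1, 18.6, 24.2 and 24.97 CPM with shCEBPB, 18.9, 17.7, 18.2, 15.7 and 15 CPM with shp53 and 34.2, 38.3, 32.1, 29.3 and 27.4 CPM with both. Libraries with shCEBPB, alone or with shp53, lay above all of OIS-v-v. *TOP2A* was 340, 304, 291, 467 and 341 CPM in Grow-v-v, 52.2, 52.8, 51.2, 104 and 102 CPM in OIS-v-v, 70.3, 72.5, 65.5, 110 and 121 CPM with shCEBPB, 89.2, 95.8, 93.1, 106 and 104 CPM with shp53 and 134, 132, 126, 146 and 129 CPM with both. *MKI67* was 286, 284, 235, 505 and 348 CPM in Grow-v-v, 43.3, 53.4, 42.7, 78.6 and 86.1 CPM in OIS-v-v, 65.7, 70.9, 62.97, 85.6 and 93.7 CPM with shCEBPB, 76.2, 85.5, 84.2, 71.8 and 67.96 CPM with shp53 and 115, 101, 99.03, 104 and 93.1 CPM with both. For *TOP2A* and *MKI67* the libraries with both hairpins lay above all OIS-v-v libraries. In *MKI67* the shp53 libraries were above OIS-v-v in replicates 1 to 3 and below it in replicates 4 and 5 (0.81 and -0.24 log2, difference -1.05 ± 0.11, adjusted p = 8.71e-07). *HMMR*, a spindle protein that also binds hyaluronan, had log2 values of the same signs (0.77 and -0.36).

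All 56 genes were still lower than in Grow-v-v with shCEBPB (24.2% of genes were lower), with shp53 (26%) and with both hairpins (25.8%), with median log2 fold changes of -1.92, -1.93 and -1.25 against -0.01 for all genes in each. With both hairpins *CDCA3* (-1.94 ± 0.29), *MYBL2* (-1.83 ± 0.20) and *CENPM* (-1.74 ± 0.25), a centromere protein, were lowest. Within the sets the median with both hairpins was -0.85 in replicates 1 to 3 alone and -1.70 in replicates 4 and 5 alone. *MAD2L1* (-0.41 ± 0.14) and *ECT2* (-0.53 ± 0.09) were nearest to growing cells. As a share of the Grow-v-v level, the summed CPM in replicates 1 to 3 was 21.6% in OIS-v-v, 30% with shCEBPB, 34.4% with shp53 and 51.7% with both, and in replicates 4 and 5 it was 22.1%, 26%, 21.9% and 32%. With both hairpins 35 of the 56 genes reached at least 50% of their Grow-v-v mean in replicates 1 to 3, and 4 did in replicates 4 and 5. The summed level with both hairpins was alike in the sets (2592, 2628 and 2656 CPM, then 2709 and 2478 CPM), while that of the OIS-v-v and Grow-v-v libraries it is set against was not.

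The 2 hairpins together did more than either alone. Against OIS-shp53, 51 genes were higher with both (14% of genes were) with a median of 0.63, and against OIS-shCEBPB 54 were (8.14% of genes), with a median of 0.64, against 0.00 for all genes in each. In replicates 1 to 3 alone and in replicates 4 and 5 alone the medians were 0.67 and 0.57 against OIS-shp53 and 0.89 and 0.31 against OIS-shCEBPB. Adding shCEBPB to shp53 raised *KIF20A* (0.90 ± 0.10) and *PTTG1* (0.87 ± 0.06) most, and *BUB3*, *MAD2L1*, *ESPL1*, *MYBL2* (adjusted p = 0.0912) and *CENPM* (adjusted p = 0.0507) did not pass. Adding shp53 to shCEBPB raised *BUB1B* (0.87 ± 0.12), a checkpoint kinase-like protein, and *CENPA* (0.83 ± 0.12) most, and *BUB3* and *CDCA3* did not pass. Whether the joint effect departs from the sum of the single ones on the log2 scale was tested as an interaction. It passed for 0 of the 56 genes in edgeR and in DESeq2, where 0.0432% of genes passed in edgeR, and 0 had an unadjusted p under 0.05, with all 56 fitted values above 0 (median 0.22, from 0.03 for *KIF23* to 0.45 for *KIF18A*). Within the sets, 0 passed in replicates 1 to 3 alone (1.43% of genes were higher), and 12 were higher in replicates 4 and 5 alone (0.825%).

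Other measures also differed between these groups, *CDKN1A* and *HRAS* among them. *CDKN1A*, the p21 gene, was 1954 to 2025 CPM in OIS-v-v replicates 1 to 3 and 1152 to 1227 CPM in replicates 4 and 5. It was 451 to 467 and 319 to 326 CPM with shp53, 2091 to 2220 and 1859 to 1990 CPM with shCEBPB, and 653 to 674 and 426 to 430 CPM with both. Its part in the mitotic results was not tested. *HRAS*, whose counts may include reads of the ER:HRAS transgene, was 1287 to 1319 and 1047 to 1197 CPM in OIS-v-v, 821 to 904 and 796 to 802 CPM with shCEBPB, 1030 to 1085 and 1024 to 1059 CPM with shp53, and 633 to 670 and 681 to 682 CPM with both hairpins, a log2 fold change of -0.91 ± 0.07 with both (adjusted p = 1.6e-06). Its part in the rise of the mitotic genes was not tested.

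Of the regulators of mitotic genes, *RBL1* (p107) fell in OIS by 1.90 in the first experiment and 1.61 in the second on the log2 scale, while *RBL2* (p130) had -0.03 ± 0.05 and -0.08 ± 0.14 and did not pass. In the second experiment *RBL2* went from 48.9 to 54.3 CPM in Grow-v-v to 39.5 to 42.2 CPM in OIS-v-v in replicates 1 to 3, and from 31.1 to 36.5 CPM to 42.3 to 46.2 CPM in replicates 4 and 5, opposite directions without overlap. *E2F7*, a repressor of the E2F family, rose by 1.69 and 1.53, and its relative *E2F8* and the activator *E2F1* fell (-4.58 and -2.99, -1.98 and -1.67). With both hairpins *LIN9*, a MuvB subunit, rose by 0.83 ± 0.19 over OIS-v-v, and *RBL1*, *RBL2*, *E2F1*, *E2F7* and *E2F8* did not pass, with values from -0.11 to 0.41. *LIN9* was 3.43 to 3.54 CPM in OIS-v-v and 7.46 to 8.65 CPM with both hairpins in replicates 1 to 3, against 6.13 to 6.59 and 8.52 to 9.12 CPM in replicates 4 and 5. *RBL1* was 7.79 to 9.25 and 12.4 to 16.9 CPM in replicates 1 to 3, without overlap, and 15.3 to 16.5 and 15.1 to 17.8 CPM in replicates 4 and 5, with overlap. The remaining counts in this paragraph are over all 5 replicates. Of 45 other mitotic genes, 45 fell in OIS and 45 in OIS-v-v, with medians of -2.90 and -2.01, and 41 rose with both hairpins (median 0.86). Of 37 S phase genes, such as replication factors, 36 fell in each comparison of OIS with growing cells (medians -1.64 and -1.52), and with both hairpins 17 rose and 2 fell (median 0.42), against 53 and 0 of the 56 mitotic genes. Of all genes tested, 35.9% fell in OIS and 23.2% in OIS-v-v, and 17.1% rose with both hairpins. The share of all genes that fell with both hairpins is not given.

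How did loss of HMGA1, an architectural chromatin protein that binds AT-rich DNA, act on the set? Of the 56 genes, 6 passed in Grow-shA1 against Grow, where 29.9% of genes passed, and the median was -0.03 against 0.01 for all genes (n = 8 per group). *CCNB1* (-0.21 ± 0.07, adjusted p = 0.0203), *ANLN* (anillin, the scaffold of the cleavage furrow), *CDCA3* and *BUB3* were lower, by at most 0.21 on the log2 scale. *HMMR* (0.22 ± 0.07, adjusted p = 0.0239) and *CKAP2L*, a spindle pole protein (0.24 ± 0.05, adjusted p = 0.00111), were higher, where 14.8% of genes were higher. Every one of the 56 overlapped between the groups, and the summed level was 5917 to 7435 CPM in Grow-shA1 against 5794 to 7473 CPM in Grow. Of the 37 S phase genes 25 were higher in Grow-shA1 and 0 lower, with a median of 0.23.

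In growing cells the panel genes overlapped the ranges of Grow given above. *FOXM1* was 136 to 169, median 146 CPM in Grow-shA1 (0.10 ± 0.05 log2 against Grow). *CDK1* was 95.7 to 124, median 110 CPM in Grow-shA1 (0.03 ± 0.05 log2 against Grow). *CCNB1* was 134 to 193, median 148 CPM. All 3 overlapped with Grow, and of them only *CCNB1* passed. *PLK1* was 94.6 to 129, median 112 CPM in Grow-shA1 (-0.09 ± 0.06 log2 against Grow). *CDC20* was 92.5 to 131, median 106 CPM in Grow-shA1 (-0.09 ± 0.07 log2 against Grow). *BUB3* was 141 to 162, median 149 CPM in Grow-shA1 (-0.11 ± 0.04 log2 against Grow). *BUB3* passed with a small decrease, and *PLK1* and *CDC20*, which are among the 3 genes lowered most in OIS-shA1, did not pass here. The other panel values were *MYBL2* (0.08 ± 0.05), *AURKB* (0.09 ± 0.05), *BUB1* (-0.07 ± 0.05), *KIF20A* (-0.13 ± 0.09), *TOP2A* (-0.01 ± 0.06) and *MKI67* (0.16 ± 0.08), and none of these 6 passed.

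In OIS the same hairpin lowered 20 of the 56 genes and raised none at the threshold, where 17.1% of genes were lower, with a median of -0.22 against 0.00 for all genes. The summed level was 640 to 773 CPM in OIS-shA1 (median 705) and 675 to 947 CPM in OIS (median 811), so the groups overlapped. Without OIS replicate 4, the shallow library, 17 were lower. By role, 6 of 9 cyclins, kinases and phosphatases and 3 of 5 genes of the anaphase-promoting complex and chromatid separation were lower. In the mixed group of chromosome structure and other genes 3 of 4 were lower. Of the kinesins 1 of 9 was lower, with 0 of 4 chromosomal passenger genes and 0 of 2 transcription factors. Counts for the remaining roles are not given.

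The largest decreases were in genes of the anaphase-promoting complex and in *PLK1*. *UBE2C*, the ubiquitin-conjugating enzyme of that complex, was 5.15 to 7.50, median 6.56 CPM in OIS and 3.07 to 5.19, median 4.24 CPM in OIS-shA1 (-0.64 ± 0.13, adjusted p = 0.000291). *CDC20*, its activator, was 7.77 to 12.9, median 11.1 CPM in OIS and 6.00 to 8.37, median 7.09 CPM in OIS-shA1 (-0.61 ± 0.10, adjusted p = 2.04e-05). *PLK1* was 8.10 to 11.4, median 9.56 CPM in OIS and 3.94 to 8.20, median 6.30 CPM in OIS-shA1 (-0.61 ± 0.12, adjusted p = 0.000199). For *UBE2C* and *PLK1*, 7 of 8 OIS-shA1 libraries lay below every OIS library, and for *CDC20* 6 of 8 did. Without OIS replicate 4 the values were -0.65, -0.63 and -0.60 for *UBE2C*, *CDC20* and *PLK1*. *NEK2* and *TTK*, which encodes the checkpoint kinase MPS1, fell by 0.51 and 0.49.

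*CCNB1* was 16.5 to 23.9, median 23.2 CPM in OIS and 13.7 to 17.9, median 16.6 CPM in OIS-shA1 (-0.46 ± 0.08, adjusted p = 4.42e-05). *TOP2A* was 29.3 to 45.5, median 36.9 CPM in OIS-shA1 (-0.45 ± 0.09, adjusted p = 0.000348). *MKI67* was 11.3 to 18.4, median 15.4 CPM and *CDK1* 6.86 to 10.1, median 7.96 CPM there (-0.30 ± 0.09 and -0.30 ± 0.11). Without OIS replicate 4 *CCNB1*, *TOP2A*, *MKI67* and *CDK1* had -0.46, -0.41, -0.28 and -0.28 and still passed. These 4 genes overlapped between the groups, and *AURKA*, at -0.38 ± 0.07, was the 1 gene that did not.

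The other panel genes did not pass in OIS-shA1. *FOXM1* was 10.4 to 16.5, median 14.2 CPM in OIS-shA1 (-0.07 ± 0.09, adjusted p = 0.54), *MYBL2* 2.74 to 4.16, median 3.29 CPM (-0.05 ± 0.14) and *AURKB* 2.64 to 5.42, median 3.93 CPM (-0.16 ± 0.14). *BUB1* was 7.80 to 10.9, median 9.28 CPM (-0.25 ± 0.10, adjusted p = 0.0525), *KIF20A* 1.98 to 4.57, median 3.20 CPM (-0.26 ± 0.17) and *BUB3* 97.9 to 116, median 103 CPM (0.01 ± 0.04). The highest values of the set were *MAD2L1* at 0.20 ± 0.10 and *ESPL1* at 0.14 ± 0.09. These groups all overlapped.

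Whether the hairpin acted differently in OIS and in growing cells was tested as an interaction over all 4 groups. Of the 56 genes, 15 had a lower response in OIS and 0 a higher one, where 11.4% of genes were lower, with a median of -0.18 against -0.01 for all genes. They were *UBE2C* (-0.53 ± 0.13, adjusted p = 0.00335), *CDC20* (-0.52 ± 0.12, adjusted p = 0.00104), *PLK1* (-0.52 ± 0.13, adjusted p = 0.00201), *CDCA2*, *MKI67*, *HMMR*, *CENPF*, *CKAP2L*, *TOP2A*, *TTK*, *TPX2*, *CCNB2*, *CDK1*, *AURKA* and *CDCA5*. *CCNB1*, which was lower in both states, had -0.25 ± 0.11, adjusted p = 0.0964, and the highest value was *KIF14* at 0.22 ± 0.13. Without OIS replicate 4 the count was again 15. Scaled by library totals with no TMM step it was 28, and the median of all genes was then -0.13. Of the 37 S phase genes 18 had a lower response in OIS and 0 a higher one.

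**Figure D4:**
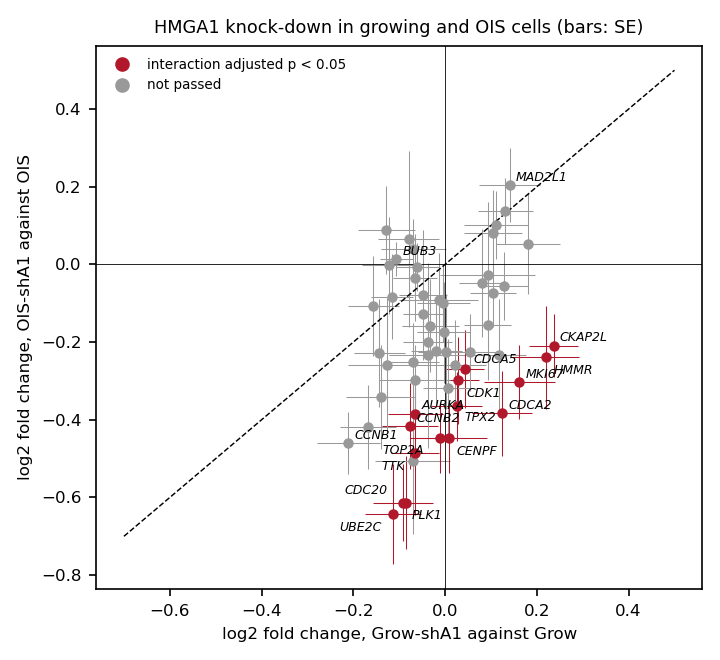
Log2 fold change with shA1 in growing cells (x axis) and in OIS cells (y axis), 1 point per gene with bars for the SE, red where the interaction passed the test, and a dashed line at equality. Growing-cell values span -0.21 to 0.24 while OIS values reach -0.64, and the red points lie below the line.

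The decreases in OIS-shA1 were small beside the fall on entry into OIS. *CDC20* fell by 3.33 from Grow to OIS and by 0.61 more in OIS-shA1, and *PLK1* by 3.61 and 0.61, in comparisons that share the OIS libraries. Of the other lists in OIS-shA1 against OIS, 14 of 45 other mitotic genes were lower and 2 higher (*SPC25*, a kinetochore gene, and *BORA*, an activator of Aurora A). Of the S phase genes 8 of 37 were lower and 0 higher. Of all genes tested 17.1% were lower, a share near that of the S phase genes. *E2F1* was lower (-0.30, adjusted p = 0.047), and *HRAS* was lower by 0.21 (adjusted p = 0.0139). The part of *HRAS* was not tested. *LIN52*, a MuvB subunit (0.50), and *RBL2* (0.18) were higher.

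H1299 cells, which grow without the RAS transgene, expressed the set at 11510 to 12320 CPM in sum in H1299-v and 11870 to 13470 CPM in H1299-shA1, with levels not to be set against IMR90 since the tables were counted and scaled separately. Of the 56 genes, 6 passed, where 15.6% of genes did, with a median of 0.03 against 0.00 for all genes. *HJURP*, the chaperone of CENPA (0.26 ± 0.04, adjusted p = 0.000491), *CDC20*, *CKAP2*, *HMMR* and *PLK1* were higher and *MYBL2* lower (-0.19 ± 0.05, adjusted p = 0.00893). *CDC20* was 326 to 369, median 343 CPM in H1299-v and 391 to 419, median 408 CPM in H1299-shA1, without overlap (0.23 ± 0.04, adjusted p = 0.000177). *PLK1* was 225 to 259, median 245 CPM in H1299-v and 250 to 306, median 268 CPM in H1299-shA1 (0.16 ± 0.05), and *MYBL2* 356 to 405, median 379 and 314 to 372, median 322 CPM. Both *CDC20* and *PLK1* thus moved up in H1299-shA1 and down in OIS-shA1, 2 comparisons in different cells and tables whose difference was not tested.

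The other panel genes did not pass in H1299. *CDK1* was 163 to 195, median 184 CPM in H1299-v and 163 to 232, median 182 CPM in H1299-shA1 (0.03 ± 0.06), *CCNB1* 498 to 573, median 552 and 509 to 694, median 535 CPM (0.03 ± 0.06), and *FOXM1* 399 to 462, median 431 and 424 to 500, median 448 CPM (0.09 ± 0.04). *TOP2A* had -0.03 ± 0.05, *MKI67* 0.00 ± 0.08, *BUB1* 0.08 ± 0.04, *AURKB* 0.04 ± 0.04, *KIF20A* -0.08 ± 0.05 and *BUB3* 0.10 ± 0.04 log2. The groups overlapped for each of these 9 genes. All 9 values lay within 0.10 of 0 on the log2 scale, although *HMGA1* itself fell by 2.31.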

How the data were processed

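RNA-seq was measured in 70 libraries of 11 groups. The authors deposited raw counts per gene in 3 tables. Per the submitters' processing notes and file headers, reads were aligned with STAR to hg19 and counted over GENCODE exons with featureCounts 1.5.2, unstranded and without multi-mapping reads, as fragments for IMR90 with shHMGA1 and as reads for H1299. The second IMR90 table has no header. The kit and instrument used for each library are not given in the sources used here. Samples were grouped by the labels.

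Genes were filtered with filterByExpr (minimum count 10, minimum total 15), scaled by TMM and tested with edgeR 4.0.16 (R 4.3.3), a quasi-likelihood fit of the groups compared without a block, with Benjamini-Hochberg adjustment over all genes tested and a threshold of 0.05. CPM are counts scaled to TMM-adjusted library sizes. Each table was scaled separately. Fits were tested on simulated counts drawn independently for each library. These held no difference between sets of replicates, so they do not cover the split in the second experiment. Alternatives were DESeq2 1.42.0, other scalings, no filter, an adjusted p under 0.01, a fold change of at least 1.5, the replicate block, 1 fit of all groups and leaving out each library. Added after the data were seen were replicates 1 to 3 alone, 4 and 5 alone, a term for the set and its interaction.

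In the second table same-numbered libraries deviated together, with correlations of 0.111 to 0.593 outside OIS-shCEBPB against Grow-v-v. In that comparison the lowest was 0.085. The best match had the same number for 2 to 4 of 5 libraries in each comparison. Same-numbered libraries also fall in the same set, replicates 1 to 3 or replicates 4 and 5. These correlations therefore cannot tell pairing by number from that split, and whether the numbers pair the samples was not tested. No pair of libraries agreed within sampling noise.

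Members and other lists were chosen with earlier results of these data known. Named genes were a panel of 12 given in every comparison, the 5 highest and 5 lowest log2 fold changes, genes called against the majority or, where 5 or fewer failed, those that failed. Promoters came from RefSeq GRCh38.p14. Depth sets the precision, and floors cover counting error only. The level of the gene targeted in the shp53 groups is not reported here.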

Additional observations from a re-analysis of the deposited data

Results flagged for a closer look

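A library lay far from the others of its group in 10 of 143 sets of values, where chance gives about 1 in 20. *CDK1* was 120.9 CPM in Grow replicate 6, *CCNB1* 16.48 CPM in OIS replicate 6 and *FOXM1* 169.2 CPM in Grow-shA1 replicate 8. *TOP2A* was 466.7 CPM in Grow-v-v replicate 4, and with both hairpins *FOXM1* was 107.2 CPM and *BUB1* 45.37 CPM in replicate 4. In H1299-v the summed level was 11506 CPM in replicate 7, and *CDK1* was 162.8 CPM and *MKI67* 439 CPM in replicate 4. *CCNB1* was 693.6 CPM in H1299-shA1 replicate 7.

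Effects also differed between groups by a test of the difference. The response to shA1 was lower in OIS than in growing cells for 15 of the 56 genes (11.4% of all genes). The rise over OIS-v-v was smaller in replicates 4 and 5 than in replicates 1 to 3 for 14 with shCEBPB (2.5%), 47 with shp53 (3.76%) and 53 with both (7.32%). The fall from Grow-v-v to OIS-v-v was larger for 7 (13.2% of all genes) and smaller for 8 (14.4%), shares near those of all genes.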

How the results depend on the processing

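Of the counts of the 56 genes, 215 values stayed within 1.5 times the reported count and 46 did not. For single genes 13881 values kept their call, 407 passed newly, 328 no longer passed and 0 turned direction. Grow-shA1 against Grow (6 genes) gave 1 at an adjusted p under 0.01, 0 at a fold of 1.5 and 13 with the replicate block. OIS-shA1 against OIS (20) gave 11 and 3 at those thresholds. OIS-shCEBPB against OIS-v-v (7) gave 12 by DESeq2, 1 at p under 0.01 and 43 with the replicate block. It gave 11 with all groups in 1 fit and 4 to 21 leaving out 1 library. By set it gave 49 in replicates 1 to 3, 26 in replicates 4 and 5, counting both directions, and 44 with the set as a term. OIS-shp53 (5) gave 8 by DESeq2, 3 by library sizes, 3 without the filter, 0 at p under 0.01, 2 at the fold, 41 with the block, 3 with all groups in 1 fit, 0 to 15 leaving out 1 library, 55 in replicates 1 to 3, 0 in replicates 4 and 5 and 47 with the set term. Both hairpins against OIS-shp53 (51) gave 32 at the fold, and against OIS-shCEBPB (54) gave 35 with all groups in 1 fit. H1299 (6) gave 0 at the fold. The shA1 interaction (15) gave 28 by library sizes, 8 at p under 0.01 and 0 at the fold, and that of shCEBPB and shp53 (0) gave 12 in replicates 4 and 5. The cause was not tested. In the shA1 experiments the libraries share only a number, and the block gave 14, 14 and 5 for OIS-shA1, the interaction and H1299. The 1903607 counts of OIS replicate 4 limit the precision of the lowest genes there.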
